A study of Homo sapiens with 6 samples.

Results

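Non-glycolytic target genes of the hypoxia-inducible factors (HIF) were examined in Caco-2 cells, an established line from a human colorectal adenocarcinoma that serves as a model of intestinal epithelium. The genes were VEGFA, CA9, CA12, P4HA1, LOX, ANKRD37, KDM3A and MXI1, taken by symbol, and they made up 8 of the 2257 rows of the deposited expression table. RNA-seq was done on wild-type cells after hypoxia/reoxygenation (H/R, 3 samples) and on control cells (3 samples). H/R cells were kept at low oxygen and then returned to normal oxygen, to model ischemia followed by reperfusion of the gut. The study's methods name a control siRNA and a TMEM2 siRNA for its sequenced H/R Caco-2 cells, but the sample labels do not say whether these samples were transfected. The sources used here also do not give how long the sequenced cells were reoxygenated, or whether the samples of a group were separate cultures. P-values therefore rest on the spread of these samples alone, and that spread may be technical.

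HIF is a pair of proteins, an oxygen-labile alpha subunit and a stable beta subunit (ARNT). With oxygen, prolyl hydroxylases mark the alpha subunit for destruction by the VHL ubiquitin ligase. Without oxygen the pair accumulates and binds hypoxia response elements in DNA, whose core is ACGTG or GCGTG. Its best known targets switch cells to glycolysis. Those described here act elsewhere, in blood vessel growth (VEGFA), acid handling (CA9 and CA12), collagen maturation (P4HA1 and LOX), chromatin (KDM3A) and the MYC network (MXI1), while ANKRD37, which encodes an ankyrin repeat protein, is known mainly as a hypoxia-induced gene.

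To show where the element's core letters lie at these genes, the 250 bases before each annotated transcription start were searched on both strands in RefSeq sequence of build GRCh38.p14. Promoter entries were matched for 7 of the 8 genes, all but VEGFA. At the first annotated start, 4 of the 7 held ACGTG (CA9, P4HA1, LOX and ANKRD37), against 18.5% of 35116 promoter windows of the same length. GCGTG was found at 2 more (CA12 and KDM3A), against 32.2% of the windows, so that 6 of 7 held one or the other, against 43.2%. Those shares take in all annotated starts, not the first of each gene alone. The windows were also not matched for GC content, which was 55.2% (LOX) to 71.6% (ANKRD37) before the first starts of the 7 genes. MXI1 held neither before its first start but both before its second. A match is a description of the letters and does not show that HIF binds there. The stretches below are written 5′ to 3′ on the strand of the gene, with the matched letters in capitals (CACGT and CACGC are the same cores read on the other strand) and up to 30 bases on either side within the window.
CA9: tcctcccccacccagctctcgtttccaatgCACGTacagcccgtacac
P4HA1: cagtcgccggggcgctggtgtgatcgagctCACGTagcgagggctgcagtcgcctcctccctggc
LOX: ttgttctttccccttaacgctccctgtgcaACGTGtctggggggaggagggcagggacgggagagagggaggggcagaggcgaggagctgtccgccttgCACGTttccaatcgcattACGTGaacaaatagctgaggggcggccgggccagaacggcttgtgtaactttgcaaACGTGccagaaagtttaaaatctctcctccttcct
ANKRD37: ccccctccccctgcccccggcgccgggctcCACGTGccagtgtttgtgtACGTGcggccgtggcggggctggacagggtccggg
KDM3A: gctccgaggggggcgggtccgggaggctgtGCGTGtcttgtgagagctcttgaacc
MXI1: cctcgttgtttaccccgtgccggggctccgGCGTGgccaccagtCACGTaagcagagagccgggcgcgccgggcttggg
CA12: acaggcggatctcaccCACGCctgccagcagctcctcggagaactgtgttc

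The CA9 stretch lies at chr9:35673880-35673927 (plus strand), and its match is 18 to 14 bases before the start. That of P4HA1 lies at chr10:73096918-73096982 (minus strand), 86 to 82 bases before the start. LOX, at chr5:122078267-122078474 (minus strand), held ACGTG 4 times, and 0.669% of all windows held it at least 4 times. ANKRD37, at chr4:185396649-185396732 (plus strand), had matches at 2 places, of which the first is the palindrome CACGTG, which reads ACGTG on both strands and is also the E-box letters. KDM3A, at chr2:86441315-86441370 (plus strand), had GCGTG 26 to 22 bases before its first start. The MXI1 stretch lies at chr10:110210074-110210152 (plus strand), with GCGTG 127 to 123 and ACGTG 113 to 109 bases before the second start. CA12, at chr15:63382046-63382096 (minus strand), had its single GCGTG at the far end of the window, 234 to 230 bases before the start.

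To determine whether the 8 genes differed between H/R and control cells, their levels in FPKM (fragments per kilobase of transcript, scaled to the mapped fragments of the library) were compared. 7 genes rose after H/R and CA12 fell. The rises ranged from 1.23 (CA9) to 1.72 (P4HA1) as differences of log2(FPKM + 1), H/R minus control, where adding 1 understates the change of low genes, and the fall of CA12 was -0.92. The test was limma with Benjamini-Hochberg adjustment over 2034 rows and a threshold of 0.05. The deposited table appears to hold rows already selected as changed, since the group means differed at least 1.5-fold in 99.68% of the rows with both means above 0. Among all tested rows, 46.1% rose and 52.9% fell, so passing the test is the rule in this table and the 7 rises and 1 fall are read as directions and sizes. The adjusted p-values take no account of that selection. The median change was 1.43 over the 8 genes, -0.80 over all tested rows and 1.19 over the 937 rows that rose. H/R and control values did not overlap in 6 of the 8 genes, against 94.6% of all tested rows, and the exceptions were KDM3A and CA12. In bulk samples, more RNA per cell and more cells that express a gene cannot be told apart.

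**Figure D1:**
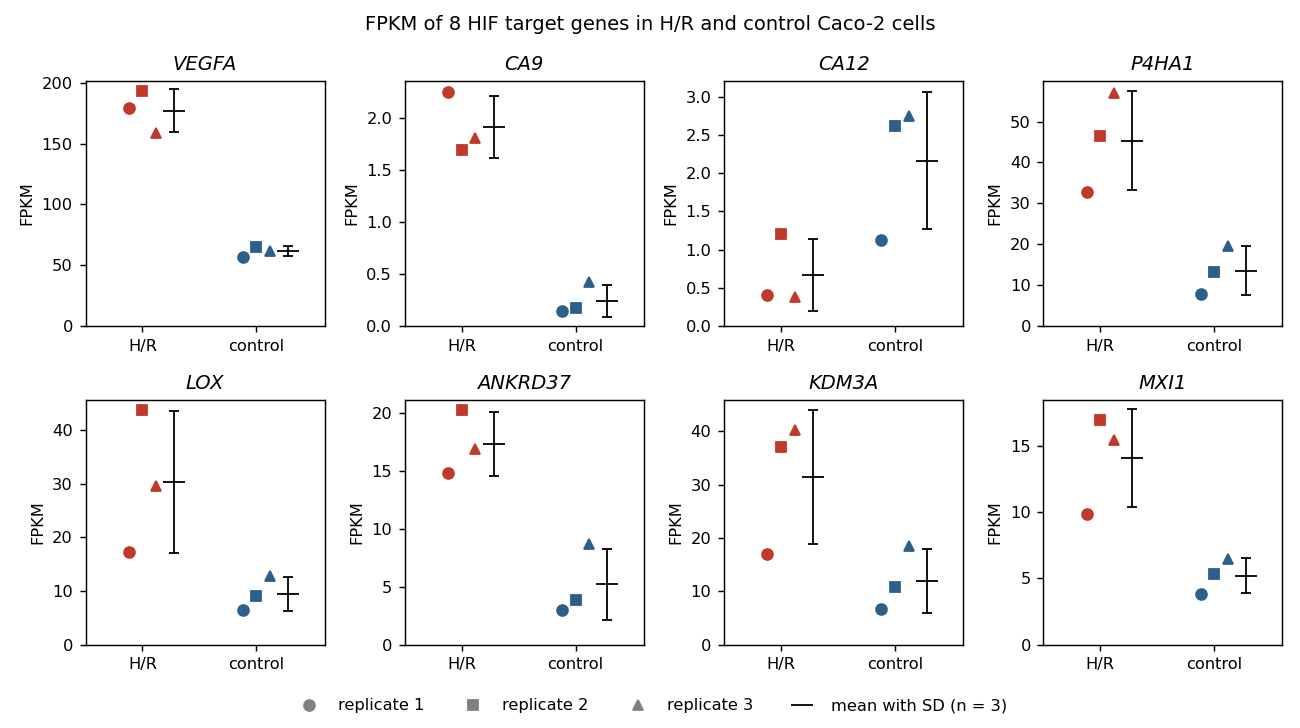
FPKM (y axis, from 0) of each gene in the 3 H/R samples and the 3 control samples (x axis), with replicates 1, 2 and 3 as circles, squares and triangles and the mean with SD beside them. H/R values lie above control values without overlap in 6 genes, overlap at 1 sample in KDM3A, and lie mostly below control in CA12.

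VEGFA encodes the growth factor that drives blood vessel sprouting through its receptors on endothelial cells. Its levels were 179.3, 193.3 and 158.6 FPKM in H/R replicates 1, 2 and 3, against 56.9, 65.4 and 62.0 FPKM in the control replicates. Every H/R sample was above every control sample, and the lowest H/R value was 2.43 times the highest control value. The mean was 177.1 ± 17.5 FPKM in H/R cells and 61.4 ± 4.26 FPKM in control cells (SD, n = 3 each), a ratio of 2.88. The log2 change was 1.51 ± 0.16 (SE, 95% interval 1.14 to 1.88, limma adjusted p = 5.56e-05). VEGFA had the highest level of the 8 genes in both groups and the tightest replicates, with a highest over lowest value of 1.22 in H/R and 1.15 in control. None of 9 genes for other VEGF ligands and VEGF receptors was among the rows of the table.

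CA9 and CA12 encode carbonic anhydrases of the cell surface, which turn carbon dioxide and water into bicarbonate and acid and thereby help cells to handle acid made in hypoxia. Both were low, at 2.75 FPKM or less in every sample, and they went in opposite directions. CA9 had 2.25, 1.69 and 1.81 FPKM in H/R replicates 1, 2 and 3, against 0.14, 0.17 and 0.42 FPKM in control replicates. The lowest H/R value of CA9 was 4.02 times the highest control value. Its mean was 1.92 ± 0.29 FPKM in H/R and 0.24 ± 0.15 FPKM in control, a ratio of 7.88, the largest ratio of the 8 genes. The log2 change of CA9 was 1.23 ± 0.18 (95% interval 0.84 to 1.63, adjusted p = 1.98e-04), at place 7 in the order of the 8 genes. With a pseudocount of 0.1 the change of CA9 became 2.63, the largest of the 8 genes.

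CA12 had 0.41, 1.21 and 0.38 FPKM in H/R replicates 1, 2 and 3, against 1.13, 2.61 and 2.75 FPKM in control replicates. H/R replicate 2 was above control replicate 1, so the groups overlapped. The mean was 0.67 ± 0.47 FPKM in H/R and 2.16 ± 0.90 FPKM in control, with a log2 change of -0.92 ± 0.27 (95% interval -1.52 to -0.31, adjusted p = 0.0082). With a pseudocount of 0.1 the change was -1.63. CA12 was no longer called when the rows were fitted without moderation, by an ordinary linear model (adjusted p = 0.062), or when both replicates numbered 3 were left out, which was chosen after seeing the data (log2 change -0.65, adjusted p = 0.060). Over its alternatives the adjusted p ranged between 0.0019 and 0.062.

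Set side by side, CA9 made up 84.6%, 58.3% and 82.6% of the summed FPKM of CA9 and CA12 in H/R replicates 1, 2 and 3, against 11.0%, 6.12% and 13.2% in control replicates. The sum itself was 2.66, 2.90 and 2.19 FPKM in H/R and 1.27, 2.78 and 3.17 FPKM in control, with overlapping groups. The change of CA9 exceeded that of CA12 by 2.15 on the log2 scale (p = 0.1 by a two-sided exact permutation test with n = 3 in each group, the smallest p this design allows). Depth per sample is unknown, so the counting error behind values this low cannot be given. In GENCODE, 643 of the 1670 exonic bases of CA9 overlap exons of ARHGEF39 on the opposite strand, and the counting is not stated to use strand, so reads of the 2 genes may not be told apart. Of 13 other carbonic anhydrase genes, CA11 was in the table, and it fell (-0.93 on the log2 scale, limma adjusted p = 0.0016). Of 7 genes for acid and bicarbonate transport, SLC16A3, which encodes the lactate exporter MCT4, was in the table and rose by 2.22.

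P4HA1 encodes the catalytic subunit of the collagen prolyl 4-hydroxylase, whose products keep the collagen triple helix stable, and LOX encodes lysyl oxidase, which crosslinks collagen and elastin outside the cell. P4HA1 had 32.8, 46.4 and 56.9 FPKM in H/R replicates 1, 2 and 3, against 7.79, 13.3 and 19.6 FPKM in control replicates. The groups were apart, with the lowest H/R value 1.68 times the highest control value, although control values alone spread 2.51-fold. The mean of P4HA1 was 45.4 ± 12.1 FPKM in H/R and 13.6 ± 5.90 FPKM in control, and its log2 change was 1.72 ± 0.32 (95% interval 1.01 to 2.43, adjusted p = 6.38e-04). Among the 937 rows that rose, P4HA1 stood at place 148 by size of change.

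LOX had 17.3, 43.9 and 29.7 FPKM in H/R replicates 1, 2 and 3, against 6.48, 8.98 and 12.8 FPKM in control replicates. Every H/R value was above the control values, but by little in H/R replicate 1, which was 1.35 times the highest control value. LOX had a mean of 30.3 ± 13.3 FPKM in H/R and 9.42 ± 3.19 FPKM in control and a log2 change of 1.54 ± 0.34 (95% interval 0.78 to 2.30, adjusted p = 0.0016). LOX is abundant in fibroblasts in tissue, and of 7 fibroblast markers 2 were in the table. Their summed level was 27.3 to 34.7 FPKM in H/R and 20.3 to 28.2 FPKM in control, with log2 changes of 1.51 for PDGFRA, which rose, and -1.04 for COL1A1, which fell. Neither was at 0, and their part in the change of LOX was not tested. Of 13 further genes of collagen hydroxylation and crosslinking, 2 were in the table. PLOD2, a lysyl hydroxylase, rose (54.6 ± 22.2 FPKM in H/R and 9.41 ± 3.70 FPKM in control) and P3H1, a prolyl 3-hydroxylase, fell (4.50 ± 1.27 FPKM in H/R and 11.1 ± 1.41 FPKM in control).

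KDM3A encodes a histone demethylase that removes methyl groups from lysine 9 of histone H3 and itself needs oxygen as a substrate. It had 17.0, 37.1 and 40.2 FPKM in H/R replicates 1, 2 and 3, against 6.63, 10.7 and 18.4 FPKM in control replicates. The groups overlapped, since H/R replicate 1 was below control replicate 3. The mean was 31.5 ± 12.6 FPKM in H/R and 11.9 ± 5.99 FPKM in control, and the log2 change was 1.34 ± 0.39, the widest error of the 8 (95% interval 0.47 to 2.21, adjusted p = 0.0072). Fitted by an ordinary linear model, KDM3A was no longer called (adjusted p = 0.074), and over its alternatives the adjusted p ranged between 1.23e-04 and 0.074. Of 16 other JmjC demethylase genes, which share this need for oxygen, 4 were in the table and 3 were tested. JMJD1C, another gene of the KDM3 family, rose by 1.05 and KDM6A by 0.98, while KDM8 fell (-1.10). The groups of KDM6A met, with H/R replicate 1 and control replicate 3 both at 9.12 FPKM.

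MXI1 encodes a partner of MAX that competes with MYC for it and represses MYC targets. Its levels were 9.87, 16.9 and 15.4 FPKM in H/R replicates 1, 2 and 3, against 3.80, 5.34 and 6.47 FPKM in control replicates. All H/R samples were above all control samples. The mean was 14.1 ± 3.72 FPKM in H/R and 5.20 ± 1.34 FPKM in control, with a log2 change of 1.27 ± 0.26 (95% interval 0.69 to 1.86, adjusted p = 0.0012). Of 12 other genes of the MYC and MAX network, 3 were in the table. MYC rose by 2.65, more than MXI1 in point estimate, and stood at 351.1 ± 25.4 FPKM in H/R and 55.2 ± 2.42 FPKM in control. MXD1, which encodes another MAX partner that represses, rose by 1.01, and MYCN fell (-0.90). The differences between these genes were not tested.

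ANKRD37 had 14.8, 20.3 and 16.9 FPKM in H/R replicates 1, 2 and 3, against 3.00, 3.87 and 8.71 FPKM in control replicates. The groups were apart, the lowest H/R value being 1.70 times the highest control value, and control replicate 3 stood well above the other control samples. The mean was 17.3 ± 2.74 FPKM in H/R and 5.19 ± 3.08 FPKM in control, and the log2 change was 1.66 ± 0.32 (95% interval 0.95 to 2.38, adjusted p = 7.80e-04). In GENCODE, 909 of its 2580 exonic bases overlap UFSP2 on the opposite strand, so its values carry the same uncertainty as those of CA9. The overlaps of VEGFA, P4HA1, LOX and MXI1 with opposite-strand genes were of 47 to 205 bases, and CA12 and KDM3A had none. None of the overlapping genes was in the table.

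In H/R cells the order of levels was VEGFA, P4HA1, KDM3A, LOX, ANKRD37, MXI1, CA9 and CA12. The ranges over samples overlapped between neighbours from P4HA1 through MXI1, so that only VEGFA at the top and CA9 and CA12 at the bottom were set apart in this order. In control cells CA12 stood above CA9 and MXI1 above ANKRD37, and the ranges of MXI1 and ANKRD37 overlapped. In the order of log2 change, P4HA1, ANKRD37, LOX, VEGFA, KDM3A, MXI1 and CA9 followed each other with differences of 0.03 to 0.17 between neighbours. Over the 7 neighbouring pairs the adjusted p was 0.7 for CA9 against CA12 and 0.9 for the rest (exact permutation test over samples), and no pair could pass in a design of 3 against 3. On the log2(FPKM + 1) scale the intervals of the 7 rises overlapped, from 0.47 at the lowest to 2.43 at the highest. Overlap of intervals is not a test of a difference, so whether the rises differ in size was left undecided.

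**Figure D2:**
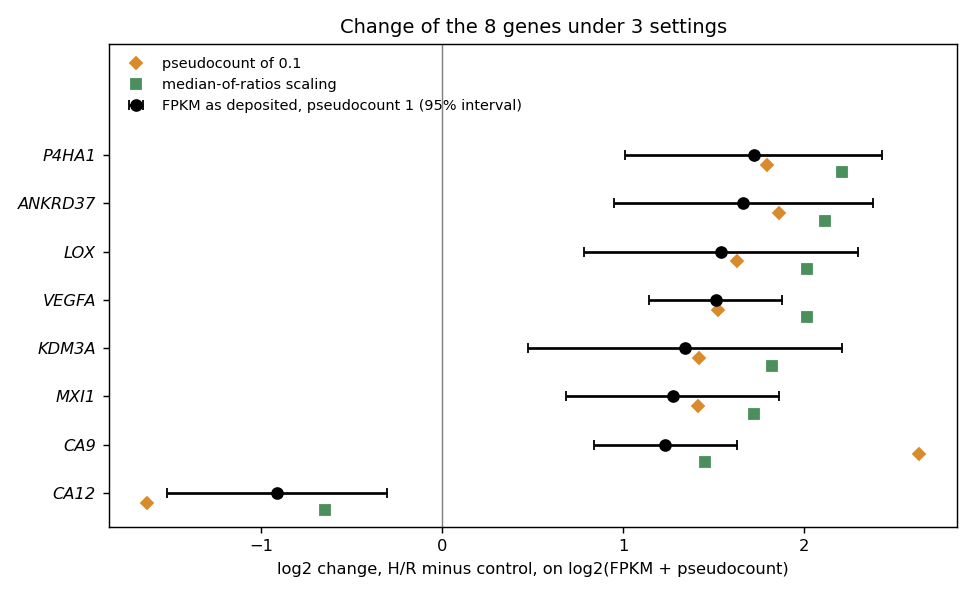
Log2 change of each gene, H/R minus control (x axis), with the 95% interval from limma for FPKM as deposited and a pseudocount of 1 (black), and the point estimates with a pseudocount of 0.1 (diamonds) and after median-of-ratios scaling (squares). The 7 rises lie between 1.23 and 1.72 in black, CA9 moves to 2.63 with the smaller pseudocount, and CA12 stays below 0 under all 3 settings.

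Scaling the libraries to a common median of ratios raised the median change of all tested rows by 0.38, and scaling to equal totals raised it by 0.26. After median-of-ratios scaling the 7 rises were 1.45 (CA9) to 2.21 (P4HA1), and CA12 remained lower at -0.65 (adjusted p = 0.024). Both scalings use the rows of this selected table and not the whole transcriptome.

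The replicates of a group were ordered alike in many of the 8 genes. Control replicate 1 had the lowest control value in 8 of the 8 genes and control replicate 3 the highest in 7, all but VEGFA. How many of all tested rows share this order was not counted, so it is not read as a trait of these genes. H/R replicate 1 had the lowest H/R value in 5 genes (P4HA1, LOX, ANKRD37, KDM3A and MXI1) and the highest in CA9. Deviations from the group mean, on the log2(FPKM + 1) scale, moved together in KDM3A and MXI1 (Pearson r = 0.97 over 6 samples), MXI1 and LOX (r = 0.97) and KDM3A and P4HA1 (r = 0.96). The same measure was 0.11 for VEGFA with KDM3A and 0.09 for CA9 with KDM3A. It was 0.82 for VEGFA with CA12 and 0.55 for CA9 with ANKRD37, and the lowest of all pairs was -0.11, for LOX with CA9. These values share libraries and are given without a test.

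GC content of the transcripts moved with this order in part. It was 40.8% in P4HA1, 45.4% in KDM3A, 47.8% in MXI1, 49.0% in LOX and 51.1% in CA12, against 60.0% in CA9, 60.7% in VEGFA and 61.6% in ANKRD37, with a median of 53.7% over the tested rows. Across all tested rows, each 10 points of GC went with a log2 deviation of 0.16 in the first and -0.12 in the third H/R library, and of 0.26 in the first and -0.26 in the third control library. Removing these slopes leaves the changes as they are by construction and alters their errors. The SE of P4HA1 became 0.19, against 0.32 without the correction, that of KDM3A 0.31 against 0.39, that of MXI1 0.21 against 0.26 and that of LOX 0.30 against 0.34. It was 0.26 against 0.27 for CA12 and 0.16 with and without the correction for VEGFA. Both ANKRD37 (0.38 against 0.32) and CA9 (0.20 against 0.18) had a larger SE with the correction. The deviation of ANKRD37 in control replicate 3 was 0.76, the highest of the 8 genes in that library, at the highest GC content of the 8. All 8 calls remained with the correction, with adjusted p between 2.72e-05 (VEGFA) and 0.0066 (CA12).

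**Figure D3:**
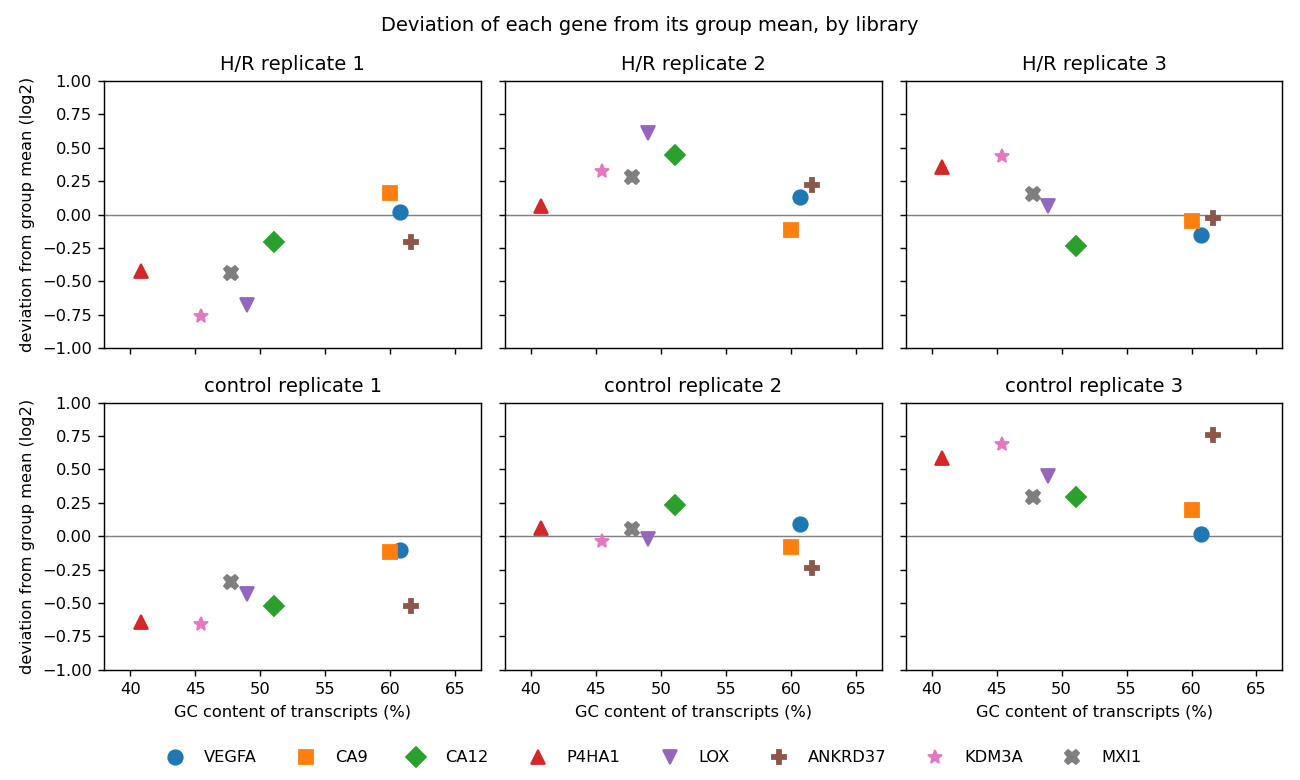
Deviation of each gene from its group mean on the log2(FPKM + 1) scale (y axis) against the GC content of its transcripts in percent (x axis), in 1 panel for each H/R library (top) and control library (bottom). All 8 genes lie below 0 in control replicate 1 and above 0 in control replicate 3, the 5 genes of lowest GC and ANKRD37, the gene of highest GC, lie below 0 in H/R replicate 1, and VEGFA stays between -0.15 and 0.13 in every panel.

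To place the 8 genes in their pathway, other HIF targets were counted. Of 22 further targets outside glycolysis, the table held 13. Of these, 12 rose and 1 fell, with a median change of 1.51, where 46.1% of all tested rows rose and 52.9% fell. The lists were chosen with earlier results of these data known, so such counts are a description. BNIP3, a mitophagy receptor gene, had 383.9 ± 41.5 FPKM in H/R and 51.0 ± 10.7 FPKM in control, and DDIT4, an inhibitor of mTORC1, had 260.6 ± 41.9 FPKM in H/R and 50.4 ± 6.81 FPKM in control. STC2, which encodes a secreted glycoprotein, rose by 1.31 and CXCR4, a chemokine receptor gene, by 2.64. The exception was EPO, the erythropoietin gene, which was listed at 0, 0.37 and 0.70 FPKM in H/R replicates 1, 2 and 3, against 3.07, 1.91 and 1.82 FPKM in control replicates (log2 change -1.28). Among the HIF targets counted here, EPO and CA12 were those that fell, and neither exceeded 3.07 FPKM in any sample.

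Of 21 HIF targets of glucose uptake and glycolysis, 10 were in the table and these 10 rose, where 46.1% of all tested rows rose. Their median change was 2.15, against 1.43 for the 8 genes, a difference that was not tested. The changes of PDK1 (3.51), HK2 (3.48), SLC2A1 (3.39) and ENO2 (2.88) were the largest, and that of PGK1 (1.44) was the smallest. Of 15 genes for HIF subunits and oxygen sensing, 2 were in the table and both rose. EPAS1, which encodes the alpha subunit HIF-2, had 69.8 ± 2.05 FPKM in H/R and 35.0 ± 4.22 FPKM in control, and SIAH2, a ubiquitin ligase acting on prolyl hydroxylases, had 48.2 ± 1.27 FPKM in H/R and 20.2 ± 2.05 FPKM in control. HIF1A, ARNT, VHL and the prolyl hydroxylase genes EGLN1, EGLN2 and EGLN3 were not among the rows analysed here.

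**Figure D4:**
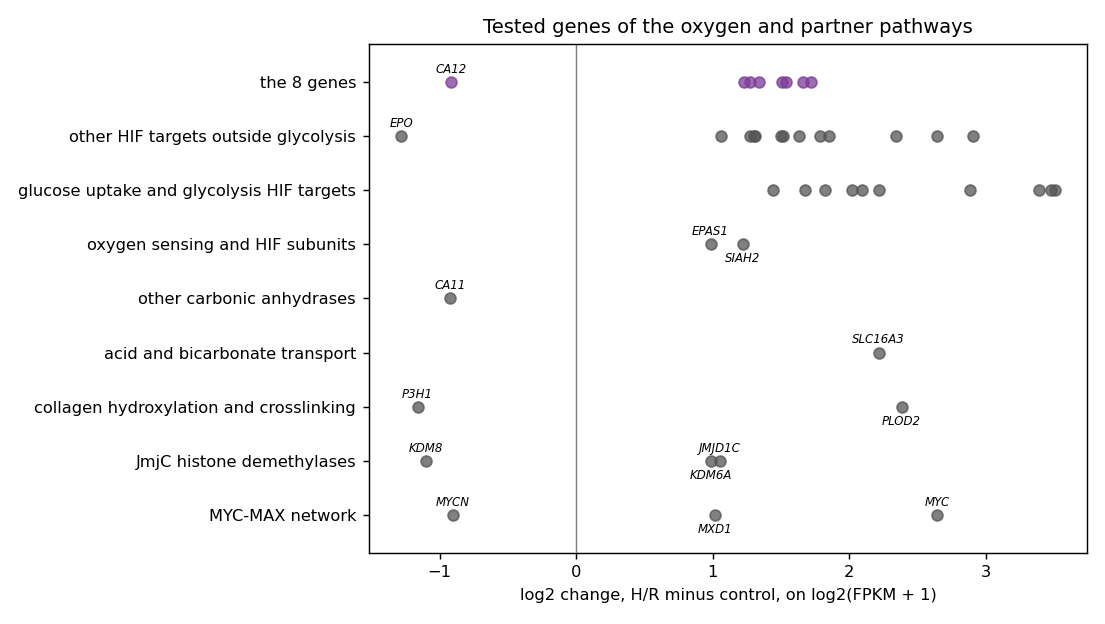
Log2 change of H/R minus control on log2(FPKM + 1) (x axis) for the 8 genes (purple) and for the tested genes of each pathway list (grey), 1 point per gene. CA12, EPO, CA11, P3H1, KDM8 and MYCN lie below 0, and all 10 genes of glucose uptake and glycolysis lie at 1.44 or above.

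For each gene, the row with the most similar levels over the 6 samples was taken by Pearson r on log2(FPKM + 1) among 1954 rows with another gene symbol. These were MEF2D for VEGFA (r = 0.9991), ANXA1 for CA9 (0.9982), DSG2 for P4HA1 (0.9993) and WSB1 for LOX (0.9967). BTBD10 was nearest to ANKRD37 (0.9968), SUCO to KDM3A (0.9997) and AHR to MXI1 (0.9993). In a table of changed rows such values are common, since between 176 and 399 rows reached an r of 0.95 with each of the 7 genes that rose. CA12 had 24 such rows, the nearest being RAB29 (0.9913), which had 3.26, 5.72 and 3.63 FPKM in H/R replicates 1, 2 and 3 and 6.16, 13.4 and 14.2 FPKM in control replicates. In RAB29, as in CA12, H/R replicate 2 was the highest H/R sample and control replicate 1 the lowest control sample.

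The labelled cell type could be checked only in part, since markers that did not change are not in a table of this kind. Of 13 epithelial and Caco-2 markers, 4 were in the table, none at 0, with a summed level of 113.7 to 146.0 FPKM in H/R and 236.3 to 327.2 FPKM in control. FABP1 and ALPI were tested and fell. KRT20 and SI were under the minimum level and were not tested. KRT20 had 1.32, 1.68 and 1.61 FPKM in H/R replicates 1, 2 and 3, against 0.19, 0.35 and 0.43 FPKM in control replicates, and SI had 0.43, 0.70 and 0.31 FPKM in H/R replicates, against 0.98, 1.47 and 1.69 FPKM in control replicates. KRT20 was thus higher and SI lower in every H/R sample than in any control sample. Beyond the fibroblast genes given with LOX, the endothelial gene ESAM (1 of 6 listed) had 7.94 to 11.4 FPKM in H/R and 3.15 to 4.12 FPKM in control, and the immune gene CD14 (1 of 5 listed) had 4.91 to 5.96 FPKM in H/R and 10.4 to 15.7 FPKM in control. Their part in the changes of the 8 genes was not tested.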

How the data were processed

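Poly(A) RNA of 3 H/R and 3 control Caco-2 samples was read as 150 bp pairs, and groups were taken from the sample titles. The authors deposited 1 table of log2 values in columns named for FPKM. Undoing the log2 and subtracting 1 gave multiples of 0.01 FPKM for 100% of values (tolerance 1e-05), so the deposited values are log2(FPKM + 1). No aligner, counting method or annotation is given in the sources used here, and the submitters' processing notes name mouse builds although symbols are human, so the build of the files is unknown. Depth is unknown.

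The 2257 rows gave 2206 after identical copies of a symbol were counted once, and 2034 with a mean of at least 1 FPKM were tested. All 8 genes passed, 2 of them (CA9 and CA12) near this minimum with means of 1.08 and 1.42 FPKM. The genes and lists were chosen with earlier results of these data known. limma 3.58.1 in R 4.3.3 was fitted to log2(FPKM + 1) with group only and a mean-variance trend across all tested rows, and was tested on simulated data. Only a minority of the simulated rows changed, unlike in this selected table, so the simulation does not give the error rate here. Named genes were the 8, up to 4 per list by adjusted p, and the nearest row of each. Outside this rule, EPO and PGK1 were named after their values were seen. GC content is the median over protein-coding transcripts (else all transcripts) of GENCODE release 29 and was found for 96.5% of the tested rows. Promoter windows came from RefSeq (GRCh38.p14). Alternatives were another pseudocount, no filter, an ordinary linear model, 3 scalings, GC correction, a replicate block and leaving out samples.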

Additional observations from a re-analysis of the deposited data

How the results depend on the processing

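Over 17 alternatives for each of the 8 genes (136 values) the direction remained in 136 and the call in 133. Some alternatives leave the log2 change as it is by construction, so the direction could not differ there. These were no filter, the ordinary linear model, the replicate block, and the GC correction with or without the block. The 3 lost calls were those of CA12 and KDM3A with an ordinary linear model (log2 changes -0.92 and 1.34 as before, adjusted p = 0.062 and 0.074) and of CA12 without both replicates numbered 3, so that 0 genes counted as falling there. Leaving out samples gave CA12 changes of -1.18 to -0.65 and 0 to 1 genes that fell. The ordinary linear model estimates each row's spread from 4 residual degrees of freedom alone. The main fit also draws on the spread of the other rows, which appear already selected as changed. Its SE was 0.27 against 0.34 for CA12 and 0.39 against 0.54 for KDM3A, so these 2 calls rest on that sharing. The cause of the loss without both replicates numbered 3 was not tested. A pseudocount of 0.1 reversed the order of P4HA1 and ANKRD37 (difference -0.06) and of MXI1 and CA9 (-1.22). With it, CA9 had the largest change of the 8 genes (2.63, against 1.86 for ANKRD37). ANKRD37 also exceeded P4HA1 without H/R replicate 3, control replicate 1, control replicate 3 or both replicates numbered 3. VEGFA had the largest change with quantile normalization (1.80, against 1.68 for P4HA1) and without control replicate 1 (1.46, against 1.40 for ANKRD37). LOX had it without both replicates numbered 1 (1.66, against 1.61 for P4HA1). Which gene rose most thus depended on the pseudocount, the scaling and the samples used.

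The replicate numbers are shared by the titles of both groups. Deviations of same-numbered samples correlated with r = 0.50, 0.07 and 0.52 across the 2034 rows. The r was -0.50 for H/R replicate 1 with control replicate 3, and -0.49 for H/R replicate 3 with control replicate 1. Deviations cancel out within a group, so these negative values are not independent of the positive ones. Samples numbered 1 and samples numbered 3 thus deviated alike in both groups, while H/R replicate 2 reached at most 0.11, with control replicate 3. The main fit used no pairs because the study states only an unpaired test for 2 groups, and whether the numbers mark pairs is not known. With the replicate number as a block, 946 rows rose, against 937 without it, and the calls of the 8 genes did not change, also together with the GC correction. The SE of each of the 8 genes was lower with the block. It was 0.17 against 0.39 for KDM3A, 0.15 against 0.32 for P4HA1 and 0.20 against 0.27 for CA12. Leaving out each sample, both replicates numbered 1 or both numbered 3 gave 880 to 942 rises. Unknown depth limits what can be said of CA9 and CA12, and genes outside the table were not analysed here.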
